A study of Mus musculus with 5 samples.

Results

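Wnt signalling genes were followed in thoracic aortas of mice that express a dominant negative PPARγ in smooth muscle. The set comprised 40 genes chosen by name: 10 Wnt ligands, 12 receptors (the Frizzleds Fzd1 to Fzd10 and the co-receptors Lrp5 and Lrp6), 10 inhibitors, 3 R-spondin agonists and 5 targets or feedback regulators. Of these, 39 were read by at least 1 probe set assigned to a single gene, out of 18193 genes so read on the array, and Tcf7 was not analysed here. The 39 genes had 83 such probe sets among 45037, and each gene was read from its brightest one.

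RNA came from thoracic aorta of male C57BL/6 mice, each array holding a pool of 6 to 8 aortas. There were 3 arrays of mice labelled PPAR gamma P467L and 2 arrays of non-transgenic littermates. The transgene, which acts beside the mouse's own PPARγ, is the human protein with the dominant negative P467L mutation, driven by the smooth muscle myosin heavy chain promoter, and no other allele or agent was described for either group. The labels used here give no ages. In pooled whole vessels, fewer cells of a type and less RNA per cell cannot be told apart.

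Wnt ligands are secreted lipid-modified glycoproteins that bind a Frizzled together with Lrp5 or Lrp6 and so stabilise β-catenin, which acts with TCF and LEF factors on target genes, or that signal through Frizzleds without β-catenin to the cytoskeleton and calcium. Secreted Frizzled-related proteins and Wif1 bind the ligands, the Dickkopf proteins Dkk1 and Dkk2 act on the co-receptors, and R-spondins keep Frizzleds at the cell surface. In the vessel wall the pathway is known for its part in smooth muscle growth and migration and in arterial calcification.

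Because P467L interferes with a nuclear receptor that acts at DNA, promoters from the set are shown first. RefSeq promoters (GRCm38.p6, 250 bases before to 50 after an annotated start) were matched for 28 of the 40 genes, with 35 starts. Of the 10 genes with an unadjusted p under 0.05 described next, 7 were matched. The 5 of these with the largest differences are printed: Wnt5b, Wif1 and Fzd1, measured higher in P467L aortas, and Sfrp2 and Cxxc4, measured lower. Capitals mark the TCF/LEF core CTTTGA on either strand.
Wnt5b, chr6:119449337-119449636, minus strand: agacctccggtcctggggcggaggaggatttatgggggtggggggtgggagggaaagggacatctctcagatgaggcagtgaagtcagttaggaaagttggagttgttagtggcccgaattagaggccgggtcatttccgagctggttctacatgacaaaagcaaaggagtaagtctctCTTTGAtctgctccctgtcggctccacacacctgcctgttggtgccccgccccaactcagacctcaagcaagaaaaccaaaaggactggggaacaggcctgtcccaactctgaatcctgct
Wif1, chr10:121033754-121034053, plus strand: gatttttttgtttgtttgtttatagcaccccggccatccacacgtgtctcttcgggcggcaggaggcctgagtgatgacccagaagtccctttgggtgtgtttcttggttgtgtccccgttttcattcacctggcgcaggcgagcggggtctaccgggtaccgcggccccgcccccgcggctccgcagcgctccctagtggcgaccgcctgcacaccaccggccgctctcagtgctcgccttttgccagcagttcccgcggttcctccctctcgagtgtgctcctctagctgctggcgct
Fzd1, chr5:4758167-4758466, minus strand: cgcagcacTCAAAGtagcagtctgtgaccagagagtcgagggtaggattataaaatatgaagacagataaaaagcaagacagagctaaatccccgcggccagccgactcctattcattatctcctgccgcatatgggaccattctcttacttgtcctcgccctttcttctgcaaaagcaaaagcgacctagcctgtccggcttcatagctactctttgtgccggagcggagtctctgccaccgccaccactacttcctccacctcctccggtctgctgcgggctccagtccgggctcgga
Sfrp2, chr3:83766071-83766370, plus strand: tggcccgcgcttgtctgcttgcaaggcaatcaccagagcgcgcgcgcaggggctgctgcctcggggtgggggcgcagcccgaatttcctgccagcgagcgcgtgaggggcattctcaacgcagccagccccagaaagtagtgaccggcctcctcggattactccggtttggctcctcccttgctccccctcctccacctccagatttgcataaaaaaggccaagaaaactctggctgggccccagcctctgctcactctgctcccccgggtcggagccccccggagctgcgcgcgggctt
Cxxc4, chr3:134236245-134236544, plus strand: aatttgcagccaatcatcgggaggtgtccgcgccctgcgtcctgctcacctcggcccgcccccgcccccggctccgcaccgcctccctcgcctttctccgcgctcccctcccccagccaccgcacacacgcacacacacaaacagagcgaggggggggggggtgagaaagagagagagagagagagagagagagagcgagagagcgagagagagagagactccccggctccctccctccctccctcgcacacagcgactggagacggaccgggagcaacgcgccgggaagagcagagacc

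The TCF/LEF core was found in the Fzd1 promoter at position -242 and in the Wnt5b promoter shown at position -71, counted from the start base as 0. Wnt5b has 3 annotated starts, and the one printed was chosen because it alone of the 3 holds a match. The core was not found in the promoters of Wif1, Fzd9, Sfrp2, Sfrp5 and Cxxc4: it was present in some of the genes measured higher and missing in others. Among the 35 promoters of the set 6 held this core, and 16.0% of all 32851 promoters did. The nuclear receptor core AGGTCA was found in 3 of the 35, those of Frzb, Tcf7 and Wnt16, and in 16.3% of all. The PPAR response element AGGTCANAGGTCA, which contains the nuclear receptor core, was found in 0 of the 35 and in 0.0396% of all. With an element this rare, a count of 0 of 35 does not set these promoters apart. Both strands were searched for each motif, for exact matches only. The median GC content was 66.3% in the set and 52.7% over all promoters.

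No gene of the set passed the test over the whole array, while 10 of the 39 had an unadjusted p under 0.05. The P467L arrays measured more Dkk3, Wif1, Wnt5b, Rspo3, Fzd1 and Fzd9, and less Sfrp2, Cxxc4, Fzd2 and Sfrp5, by 1.08-fold to 1.67-fold. Limma with Benjamini-Hochberg adjustment over 45037 probe sets called 0 of 39 at an adjusted p of 0.05, and the smallest adjusted p in the set was 0.133. The 10 genes, 6 higher and 4 lower, are 25.6% of the set, beside 9.45% over all genes (6.94% higher and 2.51% lower). The set was chosen with earlier results of these data known, so its shares are a description and were not tested. In 12 genes, 30.8%, the groups were free of overlap, 6 higher and 6 lower, beside 22.7% over all genes (16.1% higher and 6.55% lower). The median difference was 0.00 log2 units, beside 0.02 over all genes, and the median size of a difference was 0.11 beside 0.08. After median centring of the arrays the counts at the unadjusted p were 6 higher and 2 lower, beside 7.42% and 1.35% of all genes. Those without overlap were then 10 and 3, beside 32.1% and 3.33%. With estimated array weights, whose estimation stopped before convergence, 10 genes of the set passed an adjusted p of 0.05 by limma. So did 4.98% of all probe sets, a share not taken over 1 probe set per gene. The weights put 28.7% of all probe sets under an unadjusted p of 0.05, beside 7.44% without them. All values below are log2 values made with RMA, a method that corrects background, equalises the distributions of the arrays and summarises each probe set. Differences are P467L minus non-transgenic with the standard error (SE) of limma's moderated fit, and levels of different genes are not compared because probes differ in affinity.

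**Figure D1:**
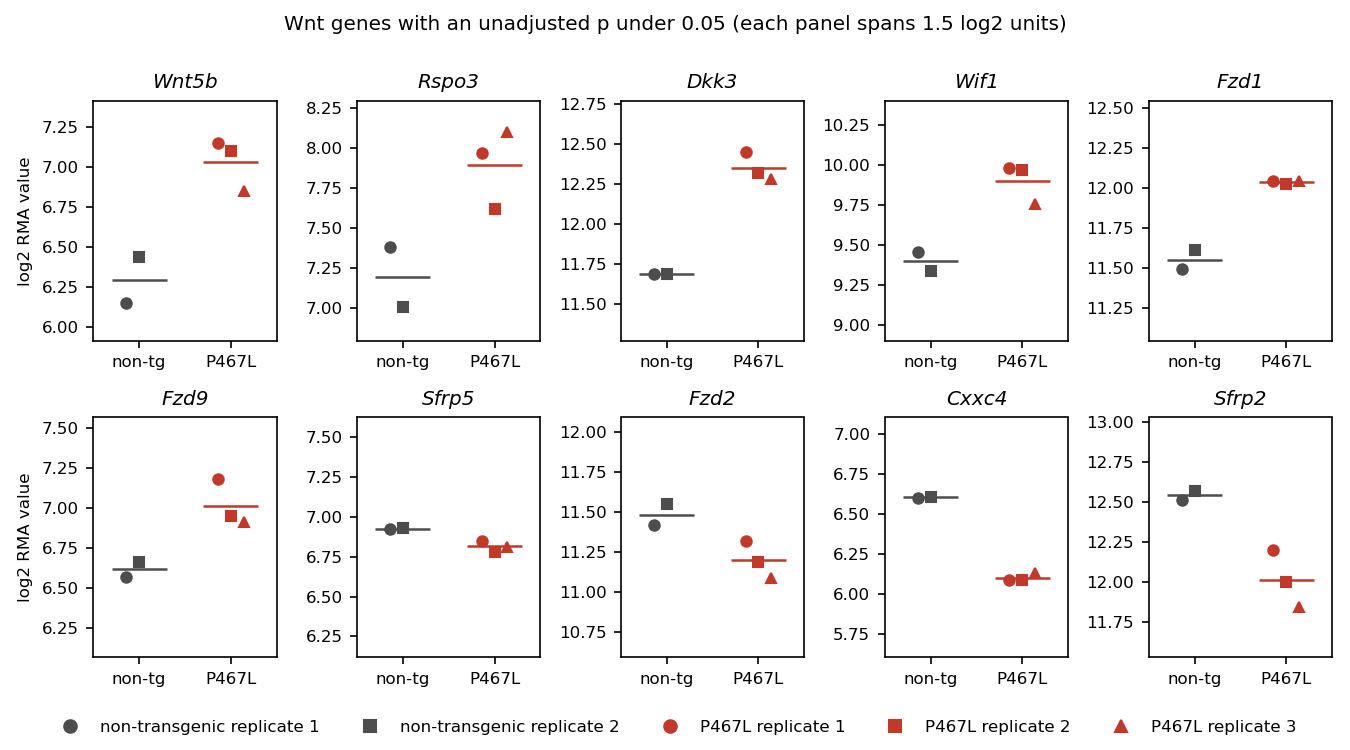
Log2 RMA values (vertical axis, each panel spanning 1.5 log2 units) of the 10 Wnt genes with an unadjusted p under 0.05, in 2 non-transgenic (grey) and 3 P467L arrays (red); symbols give the replicate and horizontal lines the group means. In every panel the groups do not overlap, from a gap of 0.59 for Dkk3 to a gap of 0.07 for Sfrp5.

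Among the 10 ligands, Wnt5b, a Wnt that signals mainly without β-catenin, was the one whose groups did not overlap. It measured 6.15 and 6.44 in the non-transgenic pools, and the P467L pools, replicates 1 to 3, gave 7.15, 7.10 and 6.85. All P467L arrays lay above both controls, with a gap of 0.41 between the groups. The difference was 0.74 (SE 0.14, 95% interval 0.36 to 1.12), or 1.67-fold, with an unadjusted p of 0.00521 and an adjusted p of 0.405 by limma. Its dimmer probe set gave 0.96 (SE 0.13), from 5.25 and 5.32 in the controls to between 6.01 and 6.38 in P467L arrays. The related Wnt5a, also known for signalling without β-catenin, had a difference of 0.03 (95% interval -0.25 to 0.31) by its brightest probe set. Its remaining probe sets gave 0.12, -0.12 and -0.50 (SE 0.31), so the probe sets of Wnt5a fell on both sides of 0.

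Wnt9a, the ligand whose probe set had the highest mean, measured 8.75 and 8.81 in the controls and 8.83, 8.55 and 8.67 in P467L replicates 1 to 3, a difference of -0.10 (SE 0.10). The control values lay within the P467L range. Wnt2 measured 5.99 and 6.28 against 6.20 to 6.44, a difference of 0.21 (SE 0.13), and Wnt4 differed by -0.14 (SE 0.18). The groups overlapped in all ligands but Wnt5b. For Wnt2b, Wnt6, Wnt10b, Wnt11 and Wnt16 the differences ran from -0.08 for Wnt6 to 0.13 for Wnt2b. The probe sets of Wnt2b, Wnt10b and Wnt16 lay below the median level of all probe sets.

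Among the Frizzled receptors Fzd1 was higher, Fzd9 was higher and Fzd2 was lower in P467L aortas. Fzd1 measured 11.49 and 11.61 in the controls and 12.04, 12.02 and 12.04 in P467L replicates 1 to 3. The P467L arrays lay close together and 0.41 above the higher control. The difference was 0.48 (SE 0.05, 95% interval 0.35 to 0.62), or 1.40-fold, with an adjusted p of 0.209 by limma, and the dimmer probe set gave 0.50 (SE 0.11). Fzd9 measured 6.57 and 6.66 against 7.18, 6.95 and 6.91, a difference of 0.40 (SE 0.10) from its 1 probe set, with an adjusted p of 0.514 by limma. P467L replicate 1 was the highest array for Fzd9, and all P467L arrays lay above both controls.

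Fzd2 measured 11.42 and 11.55 in the controls and 11.32, 11.19 and 11.09 in P467L replicates 1 to 3. The P467L arrays lay below both controls by a gap of 0.10. The difference was -0.29 (SE 0.09), or 1.22-fold lower, with an adjusted p of 0.588 by limma, and its other probe sets gave -0.12 and -0.13. Fzd8 measured 9.61 and 9.36 against 10.03, 9.66 and 9.60, and the groups overlapped. Its difference was 0.28 (SE 0.17), and its dimmer probe set gave 0.62 (SE 0.16), with all P467L arrays, 7.37 to 7.82, above the controls at 7.03 and 6.84. Fzd4 and Fzd7, read by bright probe sets at -0.07 each, had dimmer ones at -0.42 (SE 0.15) for Fzd4 and -0.25 (SE 0.08) for Fzd7. The signs within Fzd4, within Fzd7 and within Fzd8 were the same and the sizes differed. Fzd3, Fzd5, Fzd6 and Fzd10 had differences from -0.02 to 0.07.

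The co-receptors that pair with Frizzleds in β-catenin signalling had intervals that spanned 0. Lrp5 measured 7.87 and 7.77 against 8.15, 7.74 and 7.64, a difference of 0.02 (95% interval -0.45 to 0.50). Lrp6 measured 9.96 and 9.92 against 9.62, 9.95 and 10.08, a difference of -0.06 (95% interval -0.47 to 0.36). In both genes P467L replicate 1 lay farthest from the controls, above them for Lrp5 and below them for Lrp6.

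**Figure D2:**
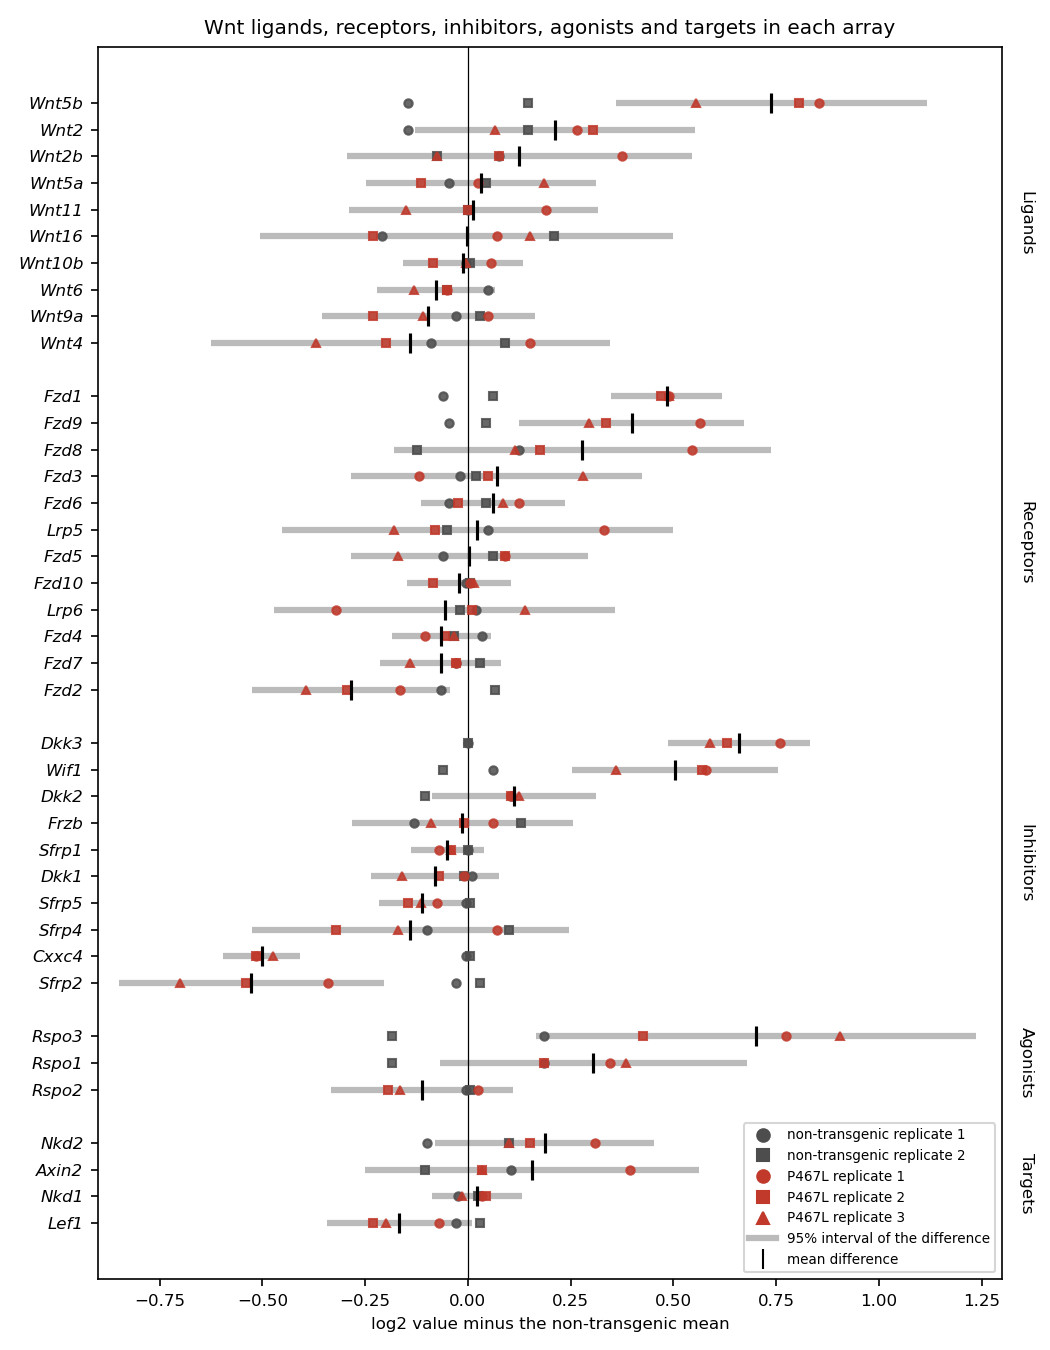
Log2 value of each array minus the non-transgenic mean (horizontal axis) for the 39 genes, grouped by role; grey bars give the 95% interval of the difference by limma and black ticks the mean difference. Inhibitors lie at both ends of their panel, from 0.66 for Dkk3 to -0.53 for Sfrp2, while Axin2 and Nkd1 lie with intervals across 0.

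The inhibitors held differences in both directions. Of 10, 5 had an unadjusted p under 0.05, 2 higher and 3 lower, beside 6.94% higher and 2.51% lower over all genes. Dkk3, a divergent Dickkopf glycoprotein, measured 11.69 in both controls and 12.45, 12.32 and 12.28 in P467L replicates 1 to 3. Every P467L array was at least 0.59 above the controls. The difference was 0.66 (SE 0.06, 95% interval 0.49 to 0.83), or 1.58-fold, with an unadjusted p of 0.000369 and an adjusted p of 0.205 by limma. The second Dkk3 probe set measured 11.60 and 11.65 against 12.44, 12.30 and 12.31, a difference of 0.73 (SE 0.06). Wif1, which binds Wnt ligands outside the cell, measured 9.46 and 9.34 against 9.98, 9.97 and 9.76. Its difference was 0.50 (SE 0.09, 95% interval 0.25 to 0.75), or 1.42-fold, with an adjusted p of 0.398 by limma and no overlap between the groups.

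Sfrp2, a secreted protein with a Frizzled-like cysteine-rich domain, lay on the opposite side. It measured 12.51 and 12.57 in the controls and 12.20, 12 and 11.84 in P467L replicates 1 to 3. All P467L arrays lay at least 0.31 below the controls, and the spread among them was wider than among the controls (SD 0.18 against 0.04). The difference was -0.53 (SE 0.12, 95% interval -0.85 to -0.20), or 1.44-fold lower, with an adjusted p of 0.472 by limma. Sfrp1, of the same family, was at 10.47 in both controls and 10.40 to 10.43 in P467L arrays by its brightest probe set, a difference of -0.05 (SE 0.03). Its other 4 probe sets gave -0.20, -0.50, -0.23 and -0.34, so all 5 lay on the lower side. Of the 5, 3 had an unadjusted p under 0.05, beside 7.44% of all probe sets (4.71% higher and 2.74% lower). Sfrp5 measured 6.92 and 6.93 against 6.85, 6.78 and 6.81, a difference of -0.11 (SE 0.04) with an adjusted p of 0.630 by limma.

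Cxxc4, an intracellular inhibitor that binds Dishevelled, had the smallest p of the set. It measured 6.60 and 6.61 in the controls and 6.09, 6.09 and 6.13 in P467L replicates 1 to 3, a gap of 0.47. The difference was -0.50 (SE 0.03, 95% interval -0.60 to -0.41), or 1.42-fold lower, with an unadjusted p of 8.91e-05 and an adjusted p of 0.133 by limma. The P467L values lay below the medians of their arrays, 6.17 to 6.23, and the control values above theirs. The other Cxxc4 probe sets, at mean levels under the array medians, gave 0.04 (SE 0.10) and -0.08 (SE 0.09), so the difference was read by 1 of 3 probe sets. Sfrp4 and Frzb, further ligand-binding proteins, differed by -0.14 (SE 0.14) and -0.01 (SE 0.10). Dkk1 and Dkk2, which act on the co-receptors, measured 5.01 to 5.18 and 4.09 to 4.32 over the 5 arrays and differed by -0.08 and 0.11. The groups overlapped in Sfrp4, Frzb, Dkk1 and Dkk2.

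Of the R-spondins, Rspo3 measured 7.38 and 7.01 in the controls and 7.97, 7.62 and 8.10 in P467L replicates 1 to 3. All P467L arrays lay above both controls, by a gap of 0.24, but each group spanned over 0.3 log2 units. The difference was 0.70 (SE 0.20, 95% interval 0.17 to 1.24), or 1.63-fold, with an adjusted p of 0.544 by limma. Without non-transgenic replicate 2, the lower control, it was 0.52, and with array weights it was 0.43. A second Rspo3 probe set, at 4.79 to 4.91 in all arrays, gave -0.06 (SE 0.05). Rspo1 measured 5.83 and 5.46 against 5.99, 5.83 and 6.03, a difference of 0.31 (SE 0.14) in which the lowest P467L array equalled the higher control. Rspo2 differed by -0.11 (SE 0.08).

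Of the targets and feedback regulators of β-catenin signalling, 0 of the 4 measured had an unadjusted p under 0.05 by the probe set read. With 9.45% of all genes past that p, a count of 0 of 4 does not set the targets apart. Axin2, a scaffold of the β-catenin destruction complex that is itself induced by the pathway, measured 7.48 and 7.27 against 7.77, 7.41 and 7.41. The groups overlapped, and the difference was 0.15 (SE 0.15, 95% interval -0.25 to 0.56). A dimmer Axin2 probe set gave -0.03 (SE 0.06). Nkd1, a Dishevelled-binding feedback inhibitor, measured 9.40 and 9.45 against 9.46, 9.47 and 9.41, a difference of 0.02 (95% interval -0.09 to 0.13). Its other probe sets ran from 0.04 to 0.23. Nkd2 differed by 0.19 (SE 0.10), and all of its 4 probe sets lay between 0.11 and 0.19. The second of these had an unadjusted p of 0.0361 by limma's fit over all probe sets, without overlap between the groups. Lef1, a transcription factor partner of β-catenin, measured 5.73 and 5.79 against 5.69, 5.53 and 5.56, a difference of -0.17 (SE 0.06, 95% interval -0.34 to 0.01) with a gap of 0.04 between the groups. Its dimmer probe set gave 0.07 (SE 0.08), with overlap, so the probe sets of Lef1 fell on both sides of 0.

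**Figure D3:**
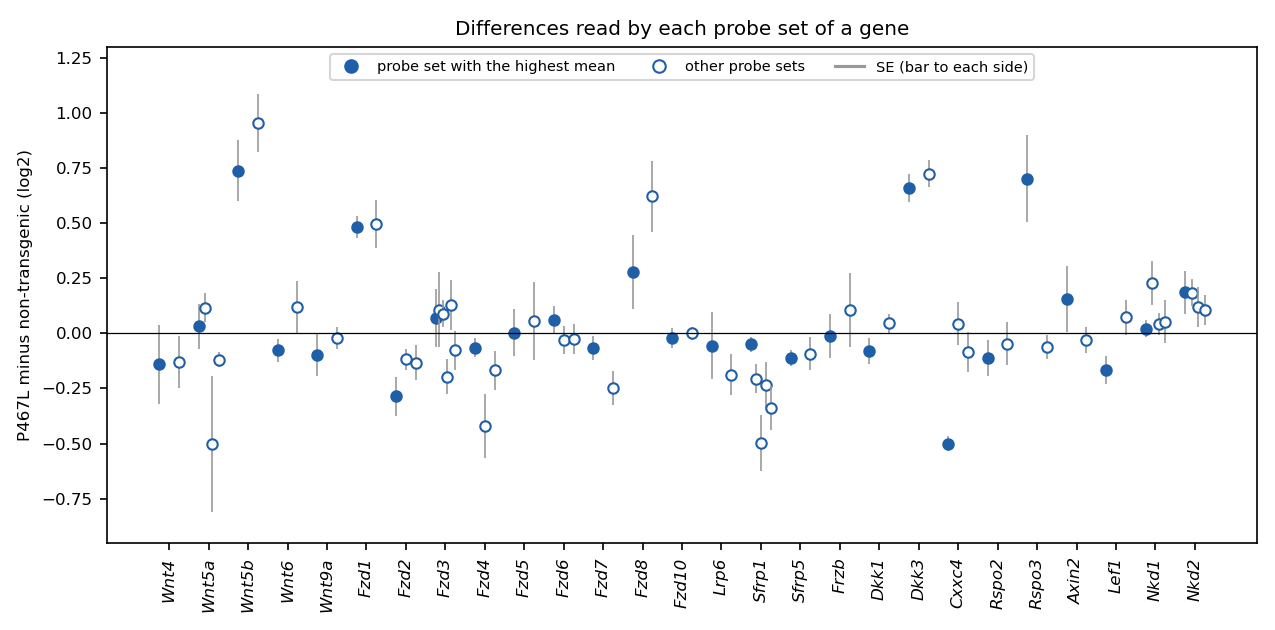
Difference between P467L and non-transgenic arrays (vertical axis, log2) read by each probe set of the 27 genes that have several; filled points are the probe sets with the highest mean, open points the others, and bars 1 SE to each side. The probe sets of Dkk3, Fzd1 and Wnt5b lie together on the higher side, those of Sfrp1 spread from -0.05 to -0.50, and those of Cxxc4 and Rspo3 do not lie together.

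Probe sets of 1 gene share the RNA and differ in the stretch of transcript they read, so they are not replicates. Of the 27 genes with several, 16 had all on the same side of 0, Dkk3, Fzd1, Wnt5b, Fzd2, Sfrp1 and Sfrp5 among them, and in 11 they lay on both sides or at 0. For the remaining 12 genes, Sfrp2, Wif1 and Fzd9 among them, only 1 probe set was assigned.

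Arrays differed in ways that the genotype does not explain. The correlation of P467L replicate 1 with any other array was at most 0.991, beside up to 0.997 between the others. It was the highest array, ties included, for 17 of the 39 genes (43.6%) and for 49.4% of all genes. Its part in the differences was not tested. Without it the differences were 0.61 for Dkk3, 0.48 for Fzd1, 0.68 for Wnt5b, 0.47 for Wif1, -0.62 for Sfrp2 and -0.50 for Cxxc4. Fzd9 was then at 0.315, beside 0.40 with all arrays. Some other genes hung more on this array. Measured from the non-transgenic mean, P467L replicates 1 to 3 lay at 0.395, 0.035 and 0.035 for Axin2. For Lrp5 they lay at 0.33, -0.08 and -0.18. Summed markers of the stomach were highest in non-transgenic replicate 2, at 14.9 against 10.96 in replicate 1 and 11.8 to 12.2 in P467L arrays.

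Markers fixed for each cell type were summed per array on the linear scale and expressed as log2. Smooth muscle markers, 7 of 7 measured, summed to 16.66 to 16.67 in controls and 16.66 to 16.69 in P467L arrays. Endothelial markers overlapped as well, at 12.7 to 12.8 in both groups, with 4 of the 8 on the higher side and 4 on the lower. Emcn, an endothelial sialomucin, was lower, at 7.58 and 7.66 in controls and 6.36 to 6.69 in P467L arrays. Tie1 was higher, at 8.69 in both controls and 8.86 to 9.08 in P467L arrays. Fibroblast and adventitial markers summed to 15.14 to 15.20 in controls and 15.22 to 15.34 in P467L arrays. These cells are known to produce secreted Frizzled-related proteins and R-spondins. Of the 7 members measured, 6 were on the higher side, led by Lum at 0.25 and Cd34 at 0.22. Over all genes, 57% were on the higher side. Macrophage markers, all 7 on the higher side, summed to 13.07 to 13.12 against 13.09 to 13.45. Skeletal muscle markers summed to 8.36 and 8.85 against 8.97 to 9.60. That came through Ckm, the muscle creatine kinase, at 8.27 to 9.08 against 7.09 and 7.67. Of the 5 skeletal markers, 2 were on the higher side and 3 on the lower. Mylpf differed by 0.07, Acta1 by -0.28 and Tnnt3 by -0.08, and Myh4, a fast myosin, lay at 4.25 to 4.32 in all arrays. Lymphocyte markers, 5 of 5 measured on the lower side, summed to 8.73 and 8.74 against 8.41 to 8.67. Adipocyte markers, 6 of 8 measured, summed to 10.96 and 12.05 against 11.07 to 11.69, and mesothelial, cardiac, nerve, stomach and red cell sums overlapped too. The part of these cell types in the Wnt gene differences was not tested. Fibroblast, skeletal muscle (through Ckm) and lymphocyte sums separated the groups without overlap, and the other sums overlapped. Among single genes, 22.7% of all separated the groups in that way.

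**Figure D4:**
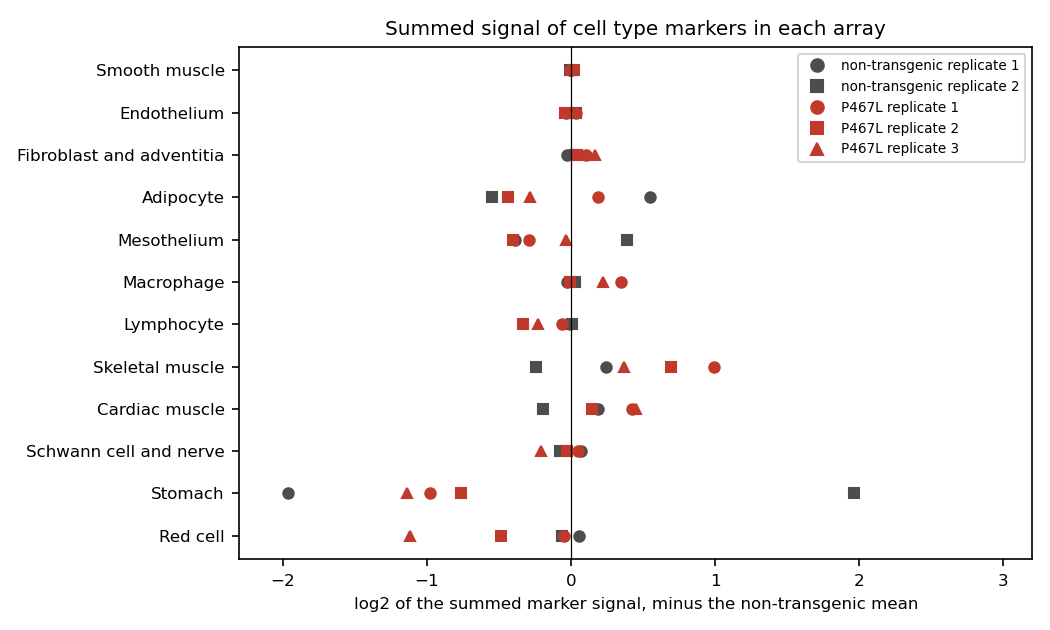
Summed signal of each cell type's markers in each array, as log2 minus the non-transgenic mean (horizontal axis), for 2 non-transgenic (grey) and 3 P467L arrays (red). Smooth muscle and endothelial sums overlap between the groups, fibroblast sums are slightly higher in P467L arrays, and the stomach sum of non-transgenic replicate 2 lies far to the right.

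The rest of the pathway was read from a list of 76 further genes, 75 of them measured. Limma called 0 of these at an adjusted p of 0.05. By the brightest probe set of each, 11 (14.7%) had an unadjusted p under 0.05, 6 higher and 5 lower, beside 9.45% over all genes. The median difference was 0.00. The 10 further ligand genes, Rspo4 and 9 Wnts such as Wnt1 and Wnt3a, had differences from -0.21 to 0.01, with 0 at an unadjusted p under 0.05. Of these 10, 6 lay below the median level of all probe sets, so signal near background limits them. Among proteins that make or move Wnts, Wls, the carrier that brings them to the cell surface, measured 10.75 to 10.77 in all arrays.

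The largest differences on that list lay in Ccn5 and Daam2. Ccn5 (WISP2), a matricellular protein first described as Wnt-induced, measured 11.58 and 11.82 in controls and 10.64, 10.67 and 10.37 in P467L replicates 1 to 3. The difference was -1.14 (SE 0.13), or 2.20-fold lower, with an adjusted p of 0.234 by limma. Its relative Ccn4 (WISP1) lay on the other side, at 7.23 and 7.29 against 7.98, 7.77 and 7.79, a difference of 0.59 (SE 0.08), and 0.87 (SE 0.07) by its second probe set. Neither pair of groups overlapped, and these genes, both listed as targets, differed in opposite directions. Daam2, a formin that links Dishevelled to the cytoskeleton, measured 5.93 and 6.15 against 7.23, 7.13 and 6.98, a difference of 1.07 (SE 0.11) with an adjusted p of 0.209 by limma, while its dim second probe set gave 0.17 (SE 0.15). Daam1 gave -0.48 (SE 0.13) by its brightest probe set and 1.12 and -0.31 by the others, so no direction can be given for it.

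Prickle2, a core protein of planar cell polarity, measured 8.80 and 8.81 against 9.20, 9.14 and 9.16, a difference of 0.36 (SE 0.04). Apcdd1, a membrane-bound Wnt inhibitor, measured 8.86 and 8.48 against 9.80, 9.48 and 9.32, a difference of 0.86 (SE 0.20), and 4 of its other 5 probe sets were also on the higher side. Sost, which encodes sclerostin, a secreted blocker of Lrp5 and Lrp6, measured 13.43 and 13.46 against 13.19, 13.25 and 13.19, a difference of -0.24 (SE 0.04). All P467L arrays lay above the controls for Prickle2 and Apcdd1 and below them for Sost. Tcf7l2, a nuclear partner of β-catenin, differed by -0.37 (SE 0.10), with all 4 probe sets lower. Cd44, an adhesion receptor and pathway target, differed by -0.16 (SE 0.04). The heparan sulfate proteoglycan Gpc3 differed by 0.27 (SE 0.09). The kinase Csnk1e gave 0.21 (SE 0.07) by its brightest probe set and -0.28 (SE 0.09) by its second. The groups did not overlap in either, so no direction can be given for Csnk1e.

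**Figure D5:**
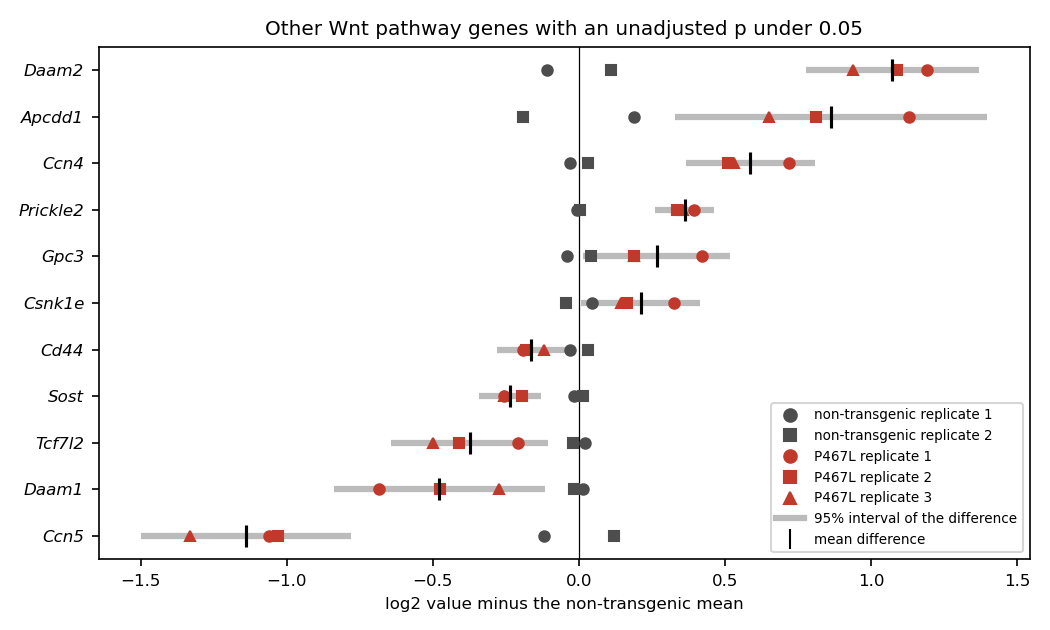
Log2 value of each array minus the non-transgenic mean (horizontal axis) for the 11 further Wnt pathway genes with an unadjusted p under 0.05; grey bars give the 95% interval of the difference by limma and black ticks the mean difference. Daam2, at 1.07, and Ccn5, at -1.14, lie at the ends.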

How the data were processed

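Total RNA of 5 pools, described as independent, was hybridised to Affymetrix mouse genome arrays. The deposited values are on the log2 scale with 2 decimals, from 3.03 to 14.99, and were made by the authors with Affymetrix Power Tools and RMA. Both names come from the submitters' processing notes, and versions are not given in the sources used here. Since RMA equalises the arrays' distributions, a shift shared by most transcripts would not be seen. After 64 control probe sets were left out, 45037 remained, of which 34945 had 1 gene in the platform annotation, 932 several and 9160 none, and symbols were updated by NCBI gene number. Limma 3.58.1 (R 4.3.3) compared both genotypes with moderated two-sided tests on 4.23 total degrees of freedom, adjusted by Benjamini-Hochberg over every probe set, and the script was tested on simulated data. The number of arrays limits the precision.

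The members, pathway list and markers were chosen with earlier results of these data known. Genes were given in full if their unadjusted p was under 0.05, if the groups did not overlap and differed by at least 0.3, or if their probe set was the brightest of its role. Fzd8, Lrp5, Lrp6, Rspo1, Axin2 and Lef1 are also given by array, chosen after their values were seen. Further pathway genes were named if their unadjusted p was under 0.05 without overlap, and Rspo4, Wnt1, Wnt3a, Wls and single markers were named after their values were seen. Alternatives covered the replicate block, scaling, dim filters, the variance model, array weights, the probe set read and the arrays left out.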

Additional observations from a re-analysis of the deposited data

How the results depend on the processing

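Over 15 alternatives each, the 10 genes with an unadjusted p under 0.05 kept their direction. That p stayed under 0.05 in 15 of 15 for Cxxc4, Dkk3 and Fzd1, in 14 for Wif1 and Wnt5b, in 12 for Fzd9 and Sfrp2, in 11 for Rspo3, in 8 for Fzd2 and in 3 for Sfrp5. The alternative for the probe set read took the one with the largest spread over the arrays, which favours group differences. For Cxxc4, Rspo3 and Fzd2 that was the probe set already read, so their other probe sets were not tried. Sfrp2, Wif1 and Fzd9 have only 1. Nkd1 changed sign, to -0.033 after a second quantile normalization, and ran from -0.0033 to 0.0467 with each array left out in turn, below 0 without non-transgenic replicate 1. No member passed an adjusted p of 0.05 by limma under any alternative, limma's treat included, except with array weights, whose estimation stopped before convergence: there 10 did, and the differences were 0.80 for Wnt5b, 0.47 for Fzd1, -0.30 for Fzd2, 0.34 for Fzd9, -0.54 for Sfrp2, -0.14 for Sfrp5, 0.57 for Wif1, 0.63 for Dkk3 and -0.51 for Cxxc4. Lef1 was the tenth, and Rspo3, at 0.43, was not among them.

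The 4 members lower at the unadjusted p, beside 2.51% of all genes, became 2 with the replicate block (2.46%), 2 with median centring (1.35%) and 11 with array weights (12.2%). Fzd2, Fzd9 and Sfrp5 missed that p with the block. The labels do not say that a shared number marks a shared litter or day, so the numbers were not taken to pair arrays. The pairing check gave correlations of 0.113 and 0.008 between same-numbered arrays. It cannot decide the matter, because the deviations of 2 controls from their mean mirror each other. Leaving out each array in turn gave 1 to 6 lower members at the unadjusted p, beside 1.46% to 4.47% of all genes, and 4 to 7 higher, beside 4.56% to 9.08%. The fewest lower came without either control and the most without P467L replicate 1. It gave 6 to 12 lower members without overlap (7.83% to 17.2% of all genes) and 7 to 11 higher (18.7% to 27.9%), which were 3 and 10 with median centring. Without both P467L replicate 1 and non-transgenic replicate 2 these were 15 and 12 (28.1% and 31.8%). For the further genes, leaving out each array gave 3 to 7 higher and 2 to 11 lower. The shares of all genes to set beside these counts are the ones given above for the unadjusted p. Fewer arrays make ranges less likely to overlap. The cause of the other changes was not tested. Signal near background limits Wnt2b, Wnt10b, Wnt16, Dkk1, Dkk2, Rspo1 and Lef1, the 7 members below the median level, and the P467L values of Cxxc4. It also limits the lower control of Wnt5b, at 6.15, and both controls of Daam2, at 5.93 and 6.15. These lay under the median of their arrays, 6.25.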
